A study of Capra hircus with 20 samples.

Results

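The core circadian clock genes were described in the hypothalamus of 20 female goats, a brain region that holds the central circadian clock. They were ARNTL, CLOCK, PER1, PER2, PER3, CRY1, CRY2, NR1D1, NR1D2 and DBP, and they make up 10 of the 21071 genes with values. The genes were listed by symbol and not by a cutoff on expression, though earlier results of these data were known. Their symbols were matched to NCBI Gene IDs in the RefSeq annotation of the goat genome ARS1.2, and all 10 are protein-coding genes. The goats were Jining grey goats aged 1 day (D1), 60 days (M2), 120 days (M4) and 180 days (M6), with 5 goats at each developmental stage and 1 library per goat. They carried no transgene or treatment, were raised under the same conditions and were slaughtered on a single day. The time of day at which each hypothalamus was collected is not given in the sources used here. Expression was measured as FPKM, a count of fragments corrected for exon length and library size. Levels can thus be set side by side between genes. Between libraries they compare only roughly, since the FPKM sums differed, from 260199 in M4 replicate 3 to 377479 in M6 replicate 3. The libraries came from whole tissue, so fewer cells of a type and less RNA per cell cannot be told apart.

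The circadian clock is a feedback loop of transcription that runs in nearly every cell. The proteins CLOCK and ARNTL, which is also called BMAL1, pair up and activate genes that carry E-box sequences, among them the PER, CRY, NR1D and DBP genes. PER and CRY proteins accumulate, enter the nucleus and shut off CLOCK and ARNTL, while NR1D1 and NR1D2, the REV-ERB nuclear receptors, repress ARNTL itself. DBP passes the rhythm on to other genes. In mammals the suprachiasmatic nucleus of the hypothalamus sets the phase of clocks in the rest of the body, and the transcripts of PER, NR1D1 and DBP rise and fall strongly over a day.

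The dissected tissue varied between libraries. Summed over 4 neuron markers (SNAP25, SYT1, RBFOX3 and STMN2), the FPKM ranged from 710 to 1301 at D1, 153 to 1074 at M2, 617 to 2516 at M4 and 62.4 to 780 at M6. Summed over the oligodendrocyte markers MOBP and MOG, it ranged from 81.1 to 1736 at D1, 182 to 682 at M2, 60.1 to 1415 at M4 and 64.3 to 1193 at M6. MOG was under 10 FPKM in 4 libraries, D1 replicate 4, M4 replicates 1 and 2 and M6 replicate 4. Markers of hypothalamic nuclei were low in many libraries. SIM1 was under 1 FPKM in 13 of 20 libraries, NKX2-1 in 13, OTP in 15 and AGRP, which was listed at 0 in 13 libraries, in 18. The 8 hypothalamic markers (these 4 with HCRT, PMCH, OXT and POMC) summed to between 3.41 and 345 FPKM at D1, 5.22 and 32.5 at M2, 0.743 and 101 at M4, and 4.54 and 844 at M6. NEUROD6, a gene of cortical neurons, reached 23.7 FPKM in M4 replicate 1, and TCF7L2, which is high in the thalamus, reached 86.3 in M4 replicate 2. Results for the clock genes were therefore also computed without these libraries.

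All 10 clock genes were detected in every library, but at very different levels. CLOCK had the highest mean, 27.4 ± 11.8 FPKM (SD, n = 20), and NR1D2 the next, 23.6 ± 5.94. CRY1, CRY2 and ARNTL followed at 5.83 ± 1.52, 5.30 ± 1.27 and 5.16 ± 2.08. PER3 stood at 3.49 ± 1.48, DBP at 3.12 ± 1.27, PER1 at 2.23 ± 0.714 and NR1D1 at 1.77 ± 0.864. PER2 was lowest, at 1.02 ± 0.541. Among the 16771 genes tested, 87.5% had a lower mean than CLOCK and 18.7% a lower mean than PER2. Within libraries, some neighbours in this order changed places often and others did not. NR1D2 was above CRY1 in 20 of 20 libraries and NR1D1 above PER2 in 18, whereas CLOCK was above NR1D2 in 12, CRY2 above ARNTL in 11 and PER3 above DBP in 12.

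**Figure D1:**
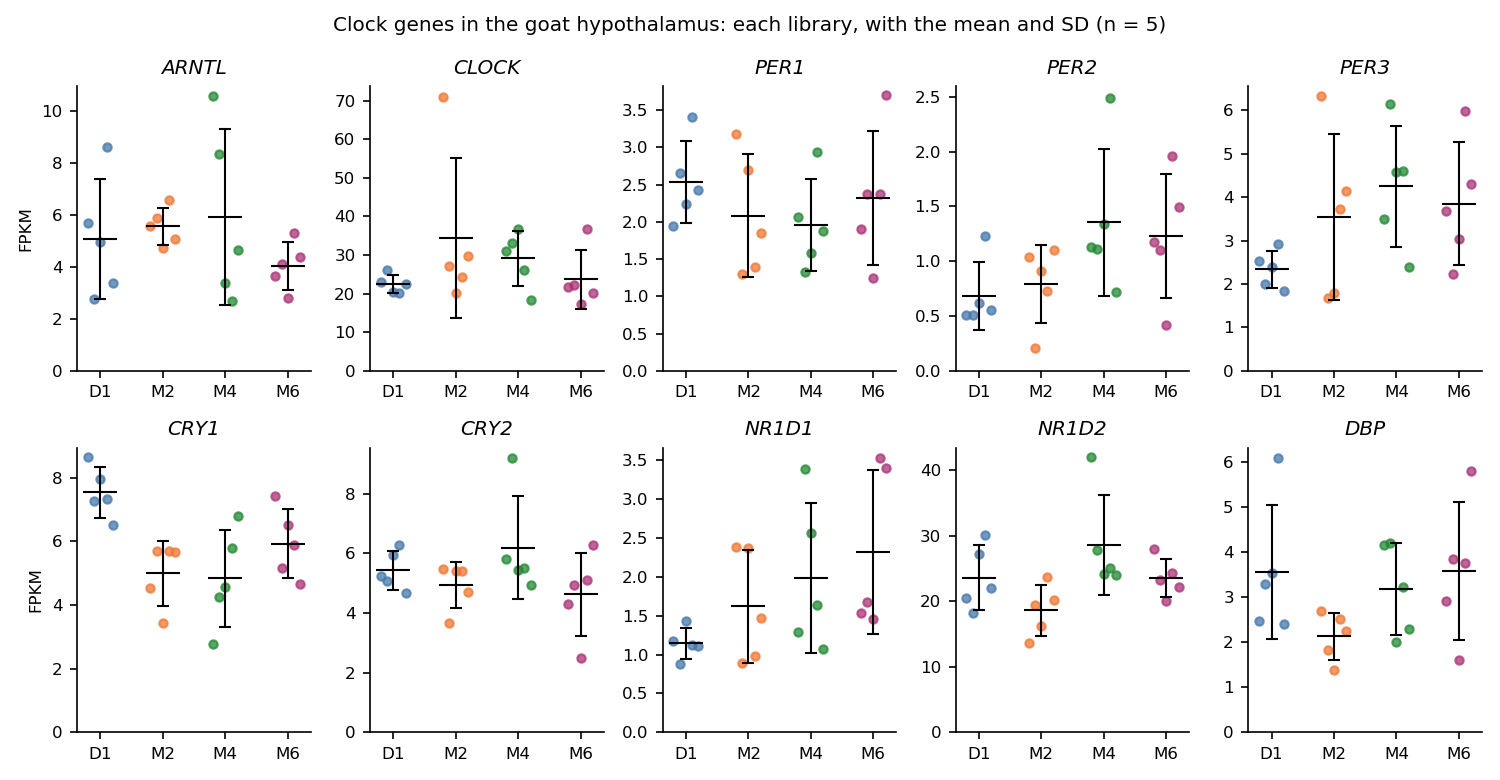
FPKM of each clock gene in each of the 20 libraries, by stage, with the mean (long bar) and SD (n = 5). CRY1 lies higher in the D1 libraries than in the M2 libraries, NR1D1 lies higher in the M6 than in the D1 libraries, and CLOCK has a single library at 70.9 at M2.

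The 4 stages were compared to ask whether clock transcripts change between birth and sexual maturity. No clock gene passed the test in any comparison. In the limma fit of all genes, 0 of 10 passed a Benjamini-Hochberg adjusted p of 0.05 in each of the 6 comparisons between stages. Few genes of any kind did, since 0% of all genes tested passed for M2 vs. D1, 0.0596% for M4 vs. D1, 0.00596% for M6 vs. D1, and 0% for M4 vs. M2, M6 vs. M2 and M6 vs. M4. The contrast of D1 with the mean of the later stages also called 0 clock genes, against 0.0775% of all genes. The moderated F test over the 4 stages called 0, against 0.00596%.

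At an unadjusted p under 0.05, the clock genes numbered 1 in M2 vs. D1, against 15.6% of all genes, and 2 in M4 vs. D1, against 8.71%. In M6 vs. D1 there was 1, against 7.41%, 1 in M4 vs. M2, against 8.68%, 0 in M6 vs. M2, against 6.14%, and 0 in M6 vs. M4, against 6.87%. For D1 against the later stages they numbered 3, against 11.7%, and for the F test 2, CRY1 and NR1D2, against 10.4%. The median log2 fold change of the 10 genes was lowest in M6 vs. M4, at -0.15, where that of all genes was 0.04. It was highest in M4 vs. M2, at 0.28, where that of all genes was -0.02. The 6 comparisons share libraries and are not independent of each other.

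The 95% confidence intervals show what these libraries could resolve. Of the 60 log2 fold changes of the 10 genes in 6 comparisons, 34 had an interval that stayed within a 2-fold change in either direction. The interval reached 0.40 to either side on the log2 scale for NR1D2 and 0.91 for PER2. All 6 intervals of CRY2 stayed within 2-fold, and 0 of 6 did for PER2. Before adjustment, 5 of the 60 intervals left out 0, and they belong to CRY1, NR1D1, NR1D2 and PER3.

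**Figure D2:**
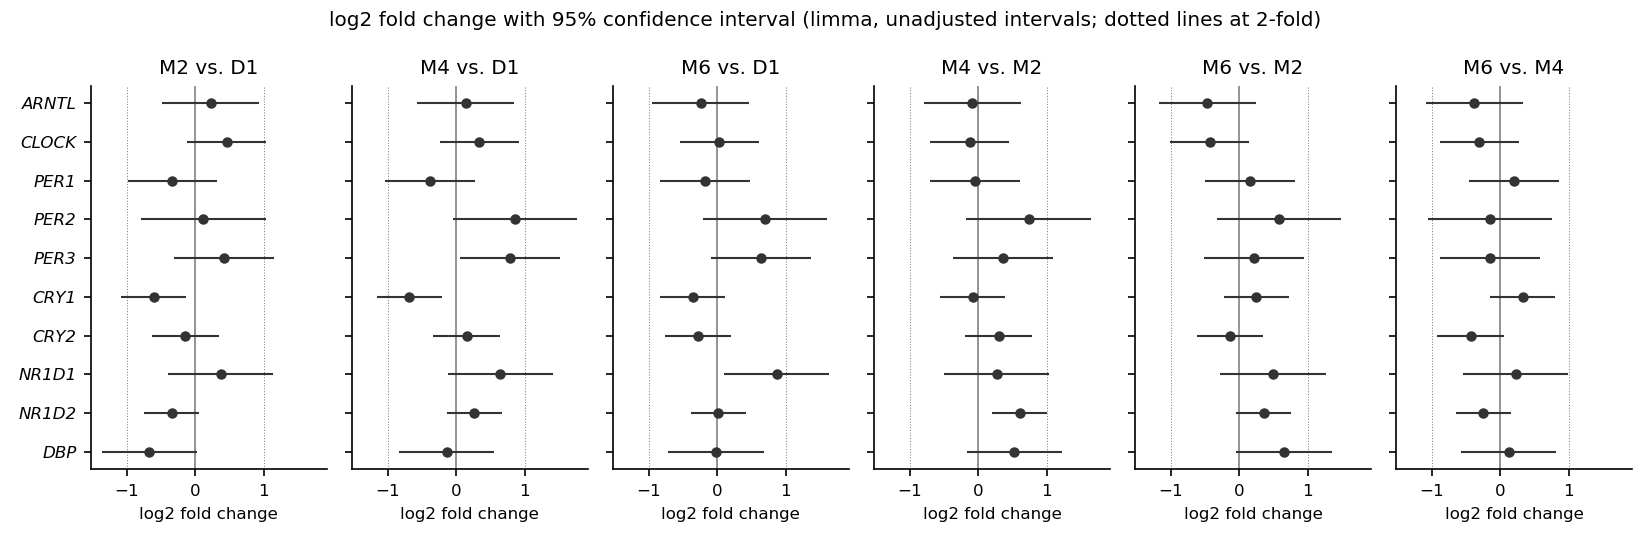
log2 fold change of each clock gene in the 6 comparisons between stages, with its unadjusted 95% confidence interval from limma; dotted lines mark a 2-fold change. The intervals that leave out 0 are those of CRY1 in M2 vs. D1 and M4 vs. D1, PER3 in M4 vs. D1, NR1D1 in M6 vs. D1 and NR1D2 in M4 vs. M2.

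ARNTL and CLOCK form the activating arm of the loop. ARNTL lies on chromosome 15 from 42932789 to 43042912. In replicates 1 to 5, its FPKM was 5.69, 2.77, 4.95, 8.63 and 3.39 at D1 and 5.59, 5.87, 4.71, 6.57 and 5.07 at M2. It was 10.6, 8.34, 3.37, 2.70 and 4.66 at M4 and 3.64, 4.13, 2.81, 5.30 and 4.39 at M6. The stages overlapped throughout, and the spread within M4 alone covered the values of all other stages. The mean was 5.93 ± 3.39 (SD, n = 5) at M4 and 4.05 ± 0.922 at M6. Its largest difference was between M6 and M2, with a log2 fold change of -0.47 (SE 0.34, adjusted p = 0.767).

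CLOCK lies on chromosome 6 from 71419331 to 71548206. Its FPKM was 23.1, 26.2, 20.4, 20.3 and 22.5 at D1 and 70.9, 27.2, 20.1, 24.4 and 29.8 at M2. It was 31.0, 33.2, 36.8, 26.1 and 18.5 at M4 and 21.8, 22.4, 17.3, 36.8 and 20.2 at M6. The D1 libraries were close together, at 22.5 ± 2.42, and M2 replicate 1 stood far above every other library. M2 replicate 1 is among the 3 libraries of lowest mapping rate and had the lowest sum of neuron markers of M2, 153 FPKM. In M2 vs. D1 the log2 fold change of CLOCK was 0.46 (SE 0.28, adjusted p = 0.419). It was 0.16 without M2 replicate 1 and 0.73 after quantile normalization.

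The PER genes encode the proteins that, with CRY, close the loop. PER1 lies on chromosome 19 from 27513654 to 27529113. Its FPKM was 1.94, 2.65, 2.25, 3.42 and 2.43 at D1 and 3.18, 1.3, 2.69, 1.39 and 1.85 at M2. It was 2.06, 1.33, 1.58, 2.94 and 1.88 at M4 and 1.91, 2.38, 1.25, 2.37 and 3.70 at M6. The ranges of all stages overlapped. In M4 vs. D1 the log2 fold change of PER1 was -0.38 (SE 0.31, adjusted p = 0.794), and it was -0.15 without the 4 libraries with MOG under 10 FPKM.

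PER2 lies on chromosome 3 from 3132903 to 3173164. Its FPKM was 0.509, 0.508, 0.615, 1.23 and 0.554 at D1 and 1.03, 0.213, 0.906, 0.724 and 1.10 at M2. It was 1.13, 1.11, 1.34, 2.48 and 0.715 at M4 and 1.18, 1.11, 0.419, 1.96 and 1.5 at M6. At D1 only replicate 4 was above 1 FPKM, whereas 4 of 5 libraries were at M4 and at M6. The mean was 0.684 ± 0.309 at D1 and 1.36 ± 0.670 at M4, and the log2 fold change was 0.86 (SE 0.43, adjusted p = 0.598). At this level the pseudocount of 0.1 FPKM shrinks the fold change, and a pseudocount of 1 gave 0.46.

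PER3 lies on chromosome 16 from 44079717 to 44149387. Its FPKM was 2.53, 2.01, 2.39, 2.92 and 1.85 at D1 and 6.33, 1.68, 1.80, 3.73 and 4.14 at M2. It was 3.51, 6.15, 4.59, 4.61 and 2.39 at M4 and 3.68, 2.23, 3.04, 5.98 and 4.32 at M6. The D1 libraries were all low, but each later stage held at least 1 library below the highest of them. In M4 vs. D1 the log2 fold change was 0.79 (SE 0.35, adjusted p = 0.541), and for the mean of the later stages against D1 it was 0.62 (SE 0.28, adjusted p = 0.411). The latter was 0.35 with the oligodendrocyte and neuron markers as covariates.

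The cryptochromes CRY1 and CRY2 are the repressors that act on the CLOCK and ARNTL pair. CRY1 had the smallest unadjusted p of the 10 genes in the F test over the stages, while NR1D2 had the smallest in a comparison of 2 stages. CRY1 lies on chromosome 5 from 68963253 to 69053571 and overlaps the annotated pseudogene LOC102173642 over 2843 bp. Its FPKM was 8.65, 7.28, 7.94, 7.32 and 6.52 at D1 and 4.52, 5.69, 3.42, 5.71 and 5.66 at M2. It was 2.78, 4.26, 4.57, 5.79 and 6.78 at M4 and 7.42, 5.18, 6.50, 5.89 and 4.65 at M6. Every D1 library was above every M2 library, while 1 library of M4 and 1 of M6 reached into the range of D1. Libraries of the compared stages did not overlap for 1 of the 10 clock genes in M2 vs. D1, where this held for 3.82% of all genes.

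CRY1 averaged 7.54 ± 0.80 FPKM (SD, n = 5) in the D1 goats and 5.93 ± 1.09 in the M6 goats, with lower means of 5.00 ± 1.02 in the M2 goats and 4.84 ± 1.53 in the M4 goats. Its log2 fold change was -0.60 (SE 0.23, adjusted p = 0.231) in M2 vs. D1 and -0.68 (SE 0.23, adjusted p = 0.379) in M4 vs. D1. For the mean of the later stages against D1 it was -0.55 (SE 0.19, adjusted p = 0.266). Without M4 replicates 1 and 2 the value in M4 vs. D1 was -0.41, and without the 3 libraries of lowest mapping rate (M2 replicates 1 and 3 and M6 replicate 3) the value in M2 vs. D1 was -0.40. The sums of the oligodendrocyte markers also had their highest median at D1, 1578 FPKM against 595 at M2, 810 at M4 and 635 at M6. Within stages CRY1 correlated with these markers at r = 0.40 (permutation p = 0.133, adjusted p = 0.288), and at 0.01 over the 16 libraries with MOG of at least 10 FPKM. With them as a covariate, CRY1 had log2 fold changes of -0.55 for M2 vs. D1 and -0.60 for M4 vs. D1. With them, or with the oligodendrocyte and neuron markers, as covariates, 0 clock genes were called in each comparison. Of the 16771 genes tested, 0 to 220 were called with the oligodendrocyte markers and 0 to 61 with both.

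CRY2 was steadier. CRY2 lies on chromosome 15 from 7069938 to 7104940. Its FPKM was 5.23, 5.07, 5.94, 6.29 and 4.68 at D1 and 5.47, 3.68, 5.43, 5.42 and 4.72 at M2. It was 5.81, 9.22, 5.46, 5.52 and 4.95 at M4 and 4.31, 4.93, 2.51, 5.11 and 6.27 at M6. M4 replicate 2 was the highest and M6 replicate 3 the lowest, and the other 18 libraries lay between 3.68 and 6.29. Its largest difference, in M6 vs. M4, was a log2 fold change of -0.43 (SE 0.23, adjusted p = 0.765). That value was -0.28 without M4 replicate 2 and -0.23 without M6 replicate 3.

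NR1D1 and NR1D2 are paralogs of the second, stabilising loop. NR1D1 lies on chromosome 19 from 40037655 to 40045436. Its FPKM was 1.17, 0.883, 1.43, 1.12 and 1.10 at D1 and 2.38, 0.898, 2.37, 0.981 and 1.47 at M2. It was 1.29, 3.38, 2.56, 1.63 and 1.08 at M4 and 1.53, 1.67, 1.46, 3.53 and 3.40 at M6. The D1 libraries were uniformly low, and every M6 library was above every D1 library, by a narrow margin in 3 of 5. In M6 vs. D1 this lack of overlap held for 1 of the 10 clock genes, against 2.84% of all genes. The mean was 1.14 ± 0.196 at D1 and 2.32 ± 1.05 at M6, and the log2 fold change was 0.87 (SE 0.37, adjusted p = 0.638). For the mean of the later stages against D1 it was 0.63 (SE 0.30, adjusted p = 0.424), or 0.42 with a pseudocount of 1.

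NR1D2 was far more abundant than NR1D1 and showed another pattern. It lies on chromosome 27 from 3646595 to 3675846. Its FPKM was 20.5, 18.2, 27.2, 30.0 and 22.0 at D1 and 13.6, 19.4, 16.1, 23.7 and 20.2 at M2. It was 42.0, 27.7, 24.1, 25.1 and 24.0 at M4 and 27.9, 23.3, 20.1, 24.3 and 22.2 at M6. Every M4 library was above every M2 library, although the highest at M2 and the lowest at M4 nearly touched. In M4 vs. M2 this held for 1 clock gene and for 1.09% of all genes. The mean was 18.6 ± 3.86 at M2 and 28.6 ± 7.66 at M4, with a log2 fold change of 0.61 (SE 0.19, adjusted p = 0.495), or 0.39 with library quality weights. Between the same stages the sum of the neuron markers had a median of 726 FPKM at M2 and 1049 at M4. Lower means of log2 values at M4 were found for 4 of 4 microglia and 4 of 4 astrocyte markers. The same held for 4 of 4 endothelial and 2 of 2 oligodendrocyte markers. Of all these markers 0 were called, against 0% of all genes. An unadjusted p under 0.05 was reached by 1 microglia marker, C1QA, and 1 endothelial marker, against 8.68% of all genes. With the oligodendrocyte and neuron markers as covariates, the log2 fold change of NR1D2 was 0.51. The part of the microglia, astrocyte and endothelial markers was not tested. No clock gene lacked overlap in M4 vs. D1, M6 vs. M2 or M6 vs. M4, where 1.93%, 0.757% and 0.775% of all genes did.

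DBP is a transcription factor of the PAR bZIP family and a direct output of the loop. It lies on chromosome 18 from 56300148 to 56306649. Its FPKM was 2.49, 3.30, 3.54, 6.10 and 2.41 at D1 and 2.69, 1.83, 1.39, 2.52 and 2.24 at M2. It was 4.16, 4.21, 2.01, 3.22 and 2.29 at M4 and 2.93, 3.86, 1.61, 3.76 and 5.81 at M6. M2 held no library above 2.69, but all stages overlapped. In M2 vs. D1 the log2 fold change of DBP was -0.67 (SE 0.33, adjusted p = 0.336). It was -0.09 with the mapping rate of the libraries as a covariate.

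The spread between goats of the same stage differed between the clock genes. The SD within stages of log2(FPKM + 0.1) ran from 0.29 for NR1D2 to 0.67 for PER2, so that 1 SD equals a 1.22-fold and a 1.59-fold difference. The median of the 10 genes was 0.49, against 0.57 for all genes tested. Low genes vary more on this scale, so each clock gene was also set beside the 1000 genes nearest to it in mean level. The SD was below the median of those genes for 8 of the 10 clock genes and above it for ARNTL and CLOCK, with 60.1% and 60.3% of such genes below them. Clock transcripts thus did not stand out among genes of like level by a wide spread between goats.

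Some libraries were high or low in many clock genes together. In M6 replicate 4, 10 of 10 clock genes were above the stage mean of log2(FPKM + 0.1), CRY1 only barely. In M6 replicate 3, D1 replicate 5 and M4 replicate 5, 1 of 10 was. The library M6 replicate 3 also had the lowest values of CLOCK, PER1 and CRY2 and the lowest sum of neuron markers, 62.4 FPKM. M6 replicate 4 is among the 4 libraries with MOG under 10 FPKM. The first principal component of the stage-centred values held 48.3% of their variance and the next 18.3%. PER2 had the largest loading on the first, 0.54, then PER3, 0.41, NR1D1, 0.38, and DBP, 0.36, and all signs were alike except that of CRY1, -0.11. The values were not scaled, so genes of wider spread weigh more, and PER2 had the widest, an SD of 0.67.

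**Figure D3:**
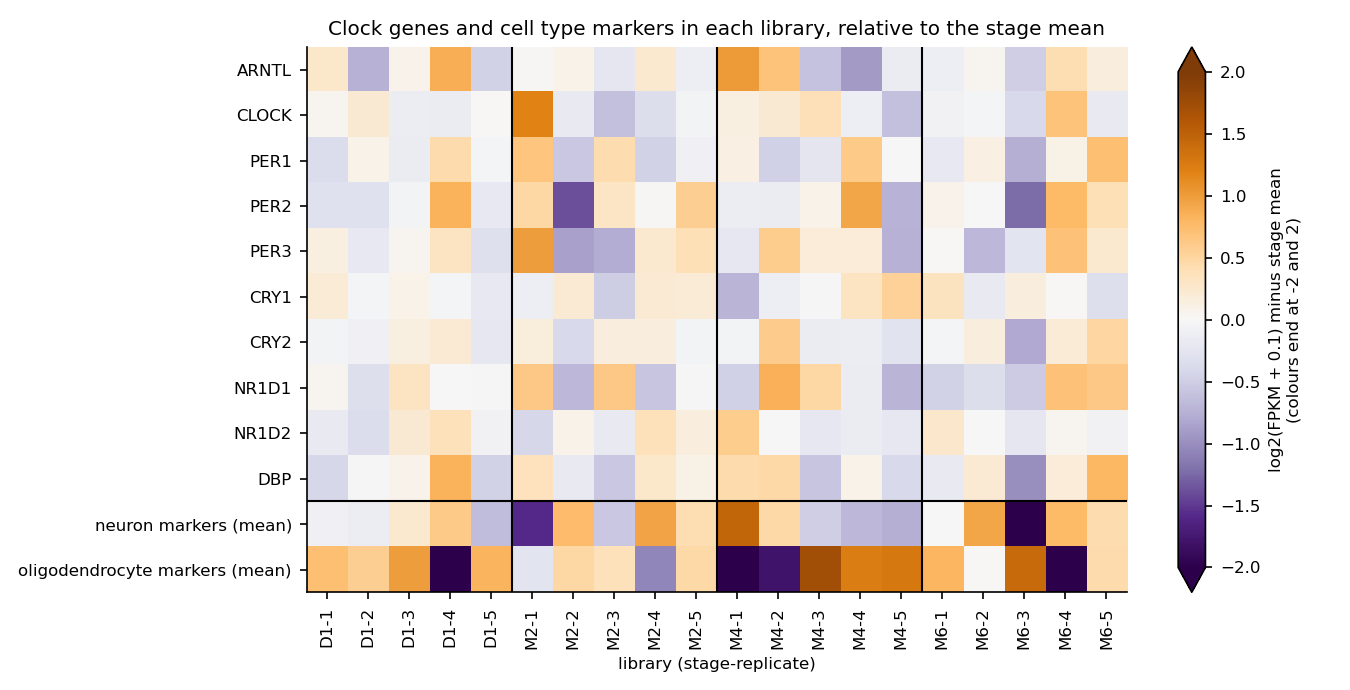
log2(FPKM + 0.1) of each clock gene in each library minus the mean of its stage, with the mean of the neuron and of the oligodendrocyte markers below. M6 replicate 4 is above its stage mean for 10 of 10 clock genes and M6 replicate 3 for 1 of 10, and the oligodendrocyte markers are lowest in D1 replicate 4, M4 replicates 1 and 2 and M6 replicate 4.

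Pairs of clock genes were compared over the 20 libraries after the mean of each stage was removed, to ask whether their levels move together from goat to goat. Of the 45 pairs, 33 correlated positively and 12 negatively. The median Pearson's r was 0.26, against 0.06 for a clock gene paired with any other gene tested. By 100000 permutations within stages, 16 pairs had a p under 0.05, and 5 pairs passed Benjamini-Hochberg adjustment over the 45, all of them positive. For comparison, 4.44% of the pairs of a clock gene with any other gene had an absolute r at least as high as the weakest r among these 5.

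The strongest pair was CRY2 with DBP, with r = 0.76 (Spearman's rho = 0.74, permutation p = 6e-04, adjusted p = 0.0252). Both were high in D1 replicate 4 and M4 replicate 2 and low in M6 replicate 3, and r was 0.65 without the 2 libraries farthest from the median. CRY2 with NR1D1 had r = 0.67 (rho = 0.68, permutation p = 0.00147, adjusted p = 0.0252), and 0.61 without 2 libraries. Both pairs had the same sign in 4 of 4 stages.

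PER1 with PER2 had r = 0.72 (rho = 0.63, permutation p = 0.00183, adjusted p = 0.0252), 0.66 without 2 libraries, and the same sign in 4 of 4 stages. Of the genes tested, 0.209% correlated with PER1 as highly as PER2 did. For ARNTL with NR1D2, a repressor of ARNTL, r was 0.66 (rho = 0.65, permutation p = 0.00224, adjusted p = 0.0252) and 0.56 without 2 libraries. CLOCK with PER3 had r = 0.69 (rho = 0.51, permutation p = 0.00553, adjusted p = 0.0498). This last pair had the same sign in 3 of 4 stages and r = 0.48 without M2 replicate 1 and M6 replicate 4. PER1 with PER2 had the lowest share of genes tested that correlated as highly with the first gene of the pair. That share was 5.18% for ARNTL with NR1D2 and 4.03% for CRY2 with NR1D1. It was 2.42% for CLOCK with PER3 and 1.51% for CRY2 with DBP.

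Pairs known to be tied in the loop were not all correlated. ARNTL with CLOCK had r = 0.12, and ARNTL with NR1D1 had r = 0.14 (permutation p = 0.595). NR1D1 with its paralog NR1D2 had r = -0.27. CRY1 was negative with 8 of the other 9 clock genes, from -0.41 with NR1D1 to 0.02 with PER3, and 0 of its pairs were called. ARNTL with DBP had r = 0.62 and missed the threshold (adjusted p = 0.0530).

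The number of pairs called rested on single libraries. It was 2 without D1 replicate 4, without M2 replicate 1 or without M4 replicate 5, and 1 without M2 replicate 2. It was 3 without M4 replicate 3, without M6 replicate 4 or without M6 replicate 5, and 0 without M6 replicate 3. It was 9 without M2 replicate 3 or without M6 replicate 2. Spearman's rho called 9 pairs, of which 4 were also called by Pearson's r, and quantile normalization left 0. Without the 4 libraries with MOG under 10 FPKM 0 pairs were called, and r was then 0.78 for CRY2 with DBP, 0.73 for PER1 with PER2, 0.68 for CLOCK with PER3, 0.60 for CRY2 with NR1D1 and 0.35 for ARNTL with NR1D2. Hence the r of the first 4 of these stayed high with fewer libraries, while that of ARNTL with NR1D2 fell.

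**Figure D4:**
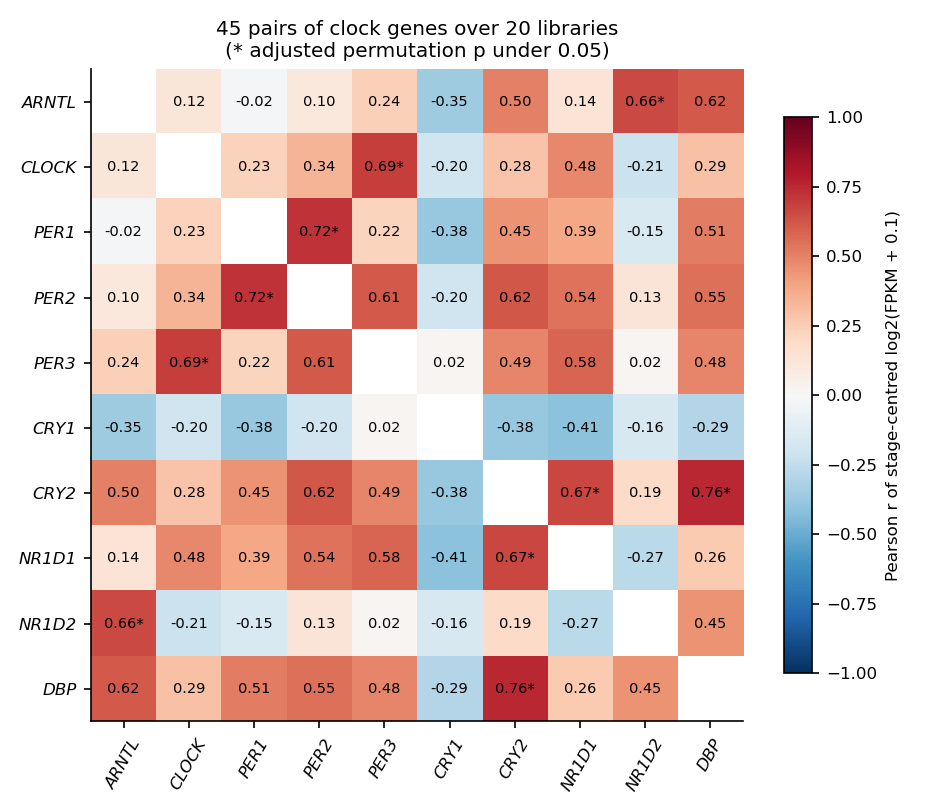
Pearson's r of stage-centred log2(FPKM + 0.1) for the 45 pairs of clock genes over 20 libraries, with a star at the 5 pairs called (adjusted permutation p under 0.05). The PER2, PER3, CRY2 and DBP rows are mostly positive, and the CRY1 row is negative in 8 of 9 cells.

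Clock genes were also compared with the mean level of cell type markers, in 50 relations of 10 genes with 5 marker lists. After adjustment over the 50, 4 relations were called, all of ARNTL or NR1D2. How many of all genes correlate as strongly with these markers was not examined, so the calls may not be particular to clock genes. These are also the clock genes that correlated with most other genes. An absolute r of at least 0.66, that of the weakest pair called, held for 10.03% of 16761 other genes with ARNTL and 8.88% with NR1D2. For the other clock genes it held for 0.698% (PER2) to 5.78% (CRY2). ARNTL was lower where the oligodendrocyte markers were higher, with r = -0.83 (rho = -0.77, permutation p = 0.00013, adjusted p = 0.0040) and r = -0.81 without 2 libraries. It was higher where the neuron markers SNAP25, SYT1, RBFOX3 and STMN2 were higher, with r = 0.65 (rho = 0.76, permutation p = 0.00031, adjusted p = 0.00517) and r = 0.76 without 2 libraries. The 4 libraries with MOG under 10 FPKM had the highest ARNTL of D1, M4 and M6. Over the other 16 libraries r was -0.34 with the oligodendrocyte markers (permutation p = 0.112) and 0.44 with the neuron markers (permutation p = 0.0360), so the first relation rests on those 4.

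NR1D2 correlated with the neuron markers at r = 0.75 (rho = 0.81, permutation p = 0.00016, adjusted p = 0.0040), with r = 0.74 without 2 libraries and r = 0.67 over the 16 libraries. With the microglia markers CSF1R, CX3CR1, C1QA and P2RY12 it had r = -0.73 (rho = -0.62, permutation p = 0.00134, adjusted p = 0.0167), and r = -0.55 without 2 libraries, but its rho missed the threshold (adjusted p = 0.0724). DBP had r = -0.68 with the oligodendrocyte markers and missed the threshold (permutation p = 0.00629, adjusted p = 0.0629), although its rho of -0.78 passed (adjusted p = 0.0060). CRY2 had r = -0.52 with the same markers (permutation p = 0.0421, adjusted p = 0.164), and its rho of -0.74 passed (adjusted p = 0.00467). NR1D1, in contrast, had r = -0.20 with the oligodendrocyte markers (permutation p = 0.421). When the oligodendrocyte markers were removed from each gene, 0 pairs of clock genes were called, and the r of ARNTL with NR1D2 was 0.41. When the neuron markers were removed as well, 1 pair was called, CRY2 with NR1D1, and the r of ARNTL with NR1D2 was 0.27.

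**Figure D5:**
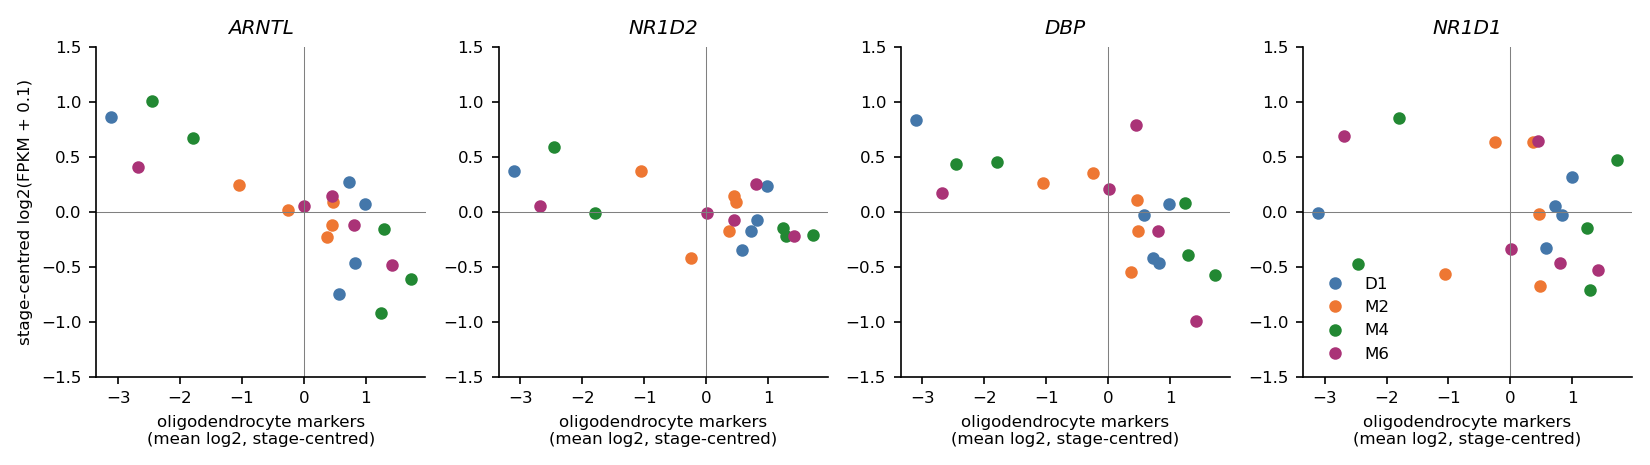
Stage-centred log2(FPKM + 0.1) of ARNTL, NR1D2, DBP and NR1D1 against the mean of the oligodendrocyte markers in the same library, 20 libraries coloured by stage. The points of ARNTL fall from upper left to lower right (r = -0.83), where the leftmost 4 are the libraries with MOG under 10 FPKM, and those of NR1D1 scatter (r = -0.20).

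The genes most like each clock gene over the 20 libraries were taken from 13544 genes of at least 1 FPKM on average, by Pearson's r of the stage-centred values. For PER1 they were MAMDC4 (0.87), AIFM3 (0.80) and ABCF2 (0.79), and for PER2 they were TTLL9 (0.83), ZFYVE28 (0.82) and LAMA1 (0.80). Only 18 of these genes were closer to PER1 than PER2 was, and 28 were closer to PER2 than PER1 was. For the other clock genes, between 102 genes (DBP) and 7150 genes (CRY1) were closer than any clock gene was. ARNTL was most like CAMK1, LZTS3 and C21H14orf79, each at 0.88 or 0.89, and CLOCK was most like ALMS1 (0.93), SYTL4 (0.92) and ZMYM6 (0.91). PER3 was most like ZNF287 (0.87), DENND1A (0.86) and CHERP (0.84).

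CRY1 was most like ARHGAP12 (0.88), IKZF5 (0.85) and ATG12 (0.85). CRY2 was most like GRIN1 (0.92), which encodes a subunit of the NMDA glutamate receptor, ARHGEF17 (0.92) and PITPNM1 (0.90). NR1D1 was most like PRR5 (0.93), MSI1 (0.92) and FAM65A (0.89), and NR1D2 was most like C19H17orf75 (0.91), PRMT5 (0.89) and OLA1 (0.89). For DBP, PARP6 (0.89) and NOP14 (0.86) were among the 3 most alike. These values of r are the highest of many and were not tested.

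Other genes of the pathway were tested in the same fit. Of 10 further transcription factors of the loop, among them ROR receptors that activate ARNTL, 0 were called by limma in any comparison. At an unadjusted p under 0.05 there were 2 in M4 vs. D1 (8.71% of all genes) and 2 in M4 vs. M2 (8.68%), all higher at M4. The other 4 comparisons held 0 (6.14% to 15.6% of all genes). In M4 vs. M2 the fold change was positive for 10 of the 10, with a median log2 value of 0.61 against -0.02 for all genes. For most of these genes the highest M4 value was in M4 replicate 1 or 2, the libraries with high NEUROD6 or TCF7L2. The fold changes of this list without those libraries were not examined. RORA had the highest mean of them, 19.1 ± 16.9 FPKM (SD, n = 20), with 79.8 in M4 replicate 2 and 50.6 in D1 replicate 3. NPAS2, a paralog of CLOCK, had the lowest, 2.78 ± 2.00, between 0.300 in M6 replicate 3 and 7.99 in M4 replicate 2. The smallest adjusted p of this list was 0.345, in M2 vs. D1. Of 8 genes listed under PER and CRY phosphorylation and turnover, 0 were called. At an unadjusted p under 0.05 there were 3 in M4 vs. M2, all higher at M4 (8.68% of all genes). There were 1 in M6 vs. M2 (6.14%), 2 in M6 vs. M4 (6.87%) and 0 in each comparison with D1 (7.41% to 15.6%). Among them GSK3B, a kinase, was highest at 27.3 ± 9.19. TIMELESS, which is in this list but is not a kinase or turnover enzyme, was lowest at 0.199 ± 0.0842.

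Genes that mark the suprachiasmatic nucleus were patchy across libraries. Of 9 such genes, 0 were called in any pairwise comparison, against 0% to 0.0596% of all genes. An unadjusted p under 0.05 was reached by 0 of them, against 6.14% to 15.6% of all genes. AVP, a neuropeptide of this nucleus and of the magnocellular nuclei, had the highest mean, 45.5 ± 100.3 FPKM, between 0.246 in M4 replicate 5 and 392 in M4 replicate 4. LHX1, a transcription factor of the nucleus, had the lowest, 0.299 ± 0.248. VIP was listed at 0 in 4 libraries and reached 55.5 in M4 replicate 1, and NMS was listed at 0 in 11. These markers were therefore uneven between libraries. M4 replicate 1 also had the highest NEUROD6, 23.7 FPKM, and M4 replicate 4 the highest OXT of M4, 86.3 FPKM. How much of the suprachiasmatic nucleus each library held cannot be read from these markers alone. The levels of the clock genes are those of the whole dissected tissue.

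Glucocorticoids and neuronal activity act on PER1 and other clock genes, so the targets of both were counted as well. Of 7 glucocorticoid-induced genes, 0 were called, and 1 had an unadjusted p under 0.05 in each pairwise comparison, where 6.14% to 15.6% of all genes did. For D1 against the later stages it was 2, both lower later, against 11.7%. KLF9 had the smallest adjusted p of these, 0.104 in M2 vs. D1, with a log2 fold change of -1.40 (SE 0.30). Of 6 immediate early genes, 0 were called in any comparison, against 0% to 0.0775% of all genes. An unadjusted p under 0.05 was reached by 0 of them, against 6.14% to 15.6% of all genes. Their smallest adjusted p was 0.551.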

How the data were processed

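Hypothalamic RNA was depleted of rRNA and made into 1 strand-specific, paired-end library per goat. The deposited values are FPKM per gene, which the authors made by trimming with fastp, alignment to the goat genome ARS1.2 (HISAT2 2.0.5) and transcript assembly (StringTie 1.3.3b). The strand setting of the counting is not given in the sources used here. The depth behind an FPKM value is unknown, and FPKM sums were between 260199 and 377479 per library. Of 21071 gene IDs, 20610 matched the RefSeq table of ARS1.2. The highest correlation between 2 libraries was 0.962, and no library was counted as a duplicate. Stages come from the sample titles.

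A gene was tested if 5 or more libraries had 0.1 FPKM or above, which kept 16771 genes with all 10 clock genes. Values were fitted as log2(FPKM + 0.1) with limma 3.58.1 (R 4.3.3), using variances with a trend, 4 stages as groups and no block, and p-values were adjusted by Benjamini-Hochberg over all genes tested. Fold changes are on this scale and understate the change of low genes. Correlations used values centred on the stage mean and two-sided tests with 100000 permutations within stages (Python 3.11.15, numpy 2.4.6, scipy 1.17.1, pandas 2.3.3). Plots were drawn with matplotlib 3.10.9. Both procedures were tested on simulated data.

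The members, the other gene lists and the tests were chosen with earlier results of these data known. Named genes are the 10 clock genes, the highest and lowest mean of the loop, turnover and suprachiasmatic lists, and the 3 genes most correlated with each clock gene (mean of at least 1 and median of at least 0.5 FPKM). VIP, NMS, KLF9 and the named markers were chosen after their values were seen. CSNK1E and PRL were not analysed here, and some genes of the lists and of the nearest genes are not reported here. The mapping rates used as a covariate come from the study's supplement.

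Alternatives were other pseudocounts, other or no filters, fits limited to the compared stages, quantile normalization or median-ratio scaling, variances with no trend, quality weights for libraries, a block for replicate number, mapping rate, Spearman's rho, and each library left out. Sets of libraries left out and marker levels as covariates were added after the data were seen.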

Additional observations from a re-analysis of the deposited data

Results flagged for a closer look

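Each clock gene was checked within each stage for a library whose gap to the nearest of the others, relative to the range of the 5 libraries, was above Dixon's 95% critical value of 0.71. This held in 4 of 40 groups of 5, and chance alone flags about 1 in 20. PER2 was 1.23 FPKM in D1 replicate 4, above the other D1 libraries. PER2 was 0.213 FPKM in M2 replicate 2, below the other M2 libraries. CRY2 was 9.22 FPKM in M4 replicate 2, above the other M4 libraries. NR1D2 was 42.0 FPKM in M4 replicate 1, above the other M4 libraries. D1 replicate 4 and M4 replicates 1 and 2 are among the 4 libraries with MOG under 10 FPKM, and the part of tissue makeup in these values was not tested.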

How the results depend on the processing

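In each comparison between stages, the number of clock genes called was 0 under each of the 35 to 37 alternatives run. The number of all genes called depended more on the setting. With library quality weights, 268 of the 16771 genes tested were called in M2 vs. D1, 91 in M4 vs. D1 and 143 in M6 vs. D1. In D1 against the later stages 677 were called with these weights, against 13 in the main fit. In M4 vs. M2, M6 vs. M2 and M6 vs. M4 the weights called 0. The 14 log2 fold changes followed across alternatives kept their direction and stayed uncalled in all 501 values, with a smallest adjusted p of 0.0668, for CRY1 in D1 against the later stages. The number of pairs called, 5, was less stable. It was 9 with Spearman's rho, 9 with the replicate block, 0 with quantile normalization and 3 with the mapping rate regressed out. Leaving out 1 library gave 0 to 9 pairs. It was 0 without the 4 libraries with MOG under 10 FPKM, 3 without the 3 libraries of lowest mapping rate, 0 with the oligodendrocyte markers removed and 1 with the neuron markers removed as well. Fewer libraries or fewer degrees of freedom lower the power of these tests, and beyond that the cause was not tested. The r of the 5 pairs kept its sign in 155 of 155 values and lost the call in 64. It ranged from 0.60 to 0.84 for CRY2 with DBP and from 0.27 to 0.73 for ARNTL with NR1D2. Replicate numbers only name the goats. Deviations of same-numbered libraries correlated at a median of -0.01 over 30 pairs of libraries, with 7 above 0.1, against 0.0044 for other numbers. As a block, they changed the count of pairs to 9 and left 0 clock genes called between stages. Depth is unknown, so counting error could not be separated from the spread between goats.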
